A study of Mus musculus with 18 samples.

Results

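The genes described here code for the nuclear-encoded subunits of the mitochondrial respiratory chain and ATP synthase. They were chosen by symbol: every gene whose symbol starts with Nduf (complex I), Uqcr (complex III), Cox4 to Cox8 (complex IV) or Atp5 (complex V), with Sdha, Sdhb, Sdhc and Sdhd for complex II and Cyc1 for complex III, leaving out the Ndufaf assembly factors and symbols that start with Atp5s. This gave 84 of the 22019 protein-coding genes in the table, 38 of them in complex I, 4 in complex II, 9 in complex III, 18 in complex IV and 15 in complex V, spread over 19 chromosomes. The rule left out 9 symbols with the same prefixes (Ndufaf1 to Ndufaf7, Atp5s and Atp5sl). None of the 13 subunits encoded by mitochondrial DNA was among the genes analysed, so the nuclear subunits were followed without their mitochondrial partners.

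The study asked how the LINC complex, which ties the nucleus to the cytoskeleton, shapes the response of transcription to the rigidity of the substrate. All cells were NIH 3T3, a mouse fibroblast line carrying the Tet-On 3G system, grown on fibronectin-coated polyacrylamide gels, and every group received 1 μg/ml doxycycline for 48 hr. SUN1L cells carried inducible SS-HA-Sun1L-KDEL, a soluble lumenal part of Sun1 that displaces nesprins from the nuclear envelope, and KDEL cells carried SS-GFP-KDEL, a GFP held in the endoplasmic reticulum. Both were puromycin-selected retroviral pools under the same doxycycline-driven promoter, and the KDEL cells alone had also been enriched by fluorescence sorting, so that differences between SUN1L and KDEL cells cannot be told apart from differences between these cell populations. The 6 groups of 3 polyadenylated RNA libraries, named by the laboratory's serial numbers, were KDEL on 1 kPa (4, 16 and 28), SUN1L on 1 kPa (3, 15 and 27), KDEL on 308 kPa (8, 20 and 32), SUN1L on 308 kPa (7, 19 and 31), KDEL on 308 kPa with 25 μM of the inhibitor Y27632 (12, 24 and 36), called Y27, and KDEL on 308 kPa with 10 μM of the myosin II inhibitor blebbistatin (10, 22 and 34). The study's methods call the 3 libraries of a group biological replicates, while the labels do not say how they were cultured, and p-values measure the spread between these libraries.

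The respiratory chain passes electrons from NADH (complex I) and succinate (complex II) through ubiquinone, complex III, cytochrome c and complex IV to oxygen, and the proton gradient that complexes I, III and IV build drives ATP synthase, complex V. Complexes I, III, IV and V mix nuclear and mitochondrial gene products, whereas complex II is entirely nuclear and is also an enzyme of the citric acid cycle. Several complex IV subunits exist as a ubiquitous isoform and a second isoform restricted to muscle, lung or testis. Fibroblasts are known to use the ubiquitous set.

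Cox7b2 is a paralog of the complex IV subunit Cox7b and is known from testis. It was set apart because earlier results of these data showed it high in SUN1L libraries. RefSeq windows from 250 bases before to 50 after the annotated start (GRCm38.p6) were at hand for 68 of the 84 members. The windows of the pair are shown because these paralogs, both small subunits of the same complex, had such different signals in the libraries. Capitals mark CCAAT boxes (CCAAT on either strand, bound by NF-Y) and 1 match to AANATGGC, a YY1 motif, on the reverse strand in Cox7b. The Cox7b2 window lies at chr5:71548156-71548455 on the minus strand and the Cox7b window at chrX:106015450-106015749 on the plus strand.
Cox7b2: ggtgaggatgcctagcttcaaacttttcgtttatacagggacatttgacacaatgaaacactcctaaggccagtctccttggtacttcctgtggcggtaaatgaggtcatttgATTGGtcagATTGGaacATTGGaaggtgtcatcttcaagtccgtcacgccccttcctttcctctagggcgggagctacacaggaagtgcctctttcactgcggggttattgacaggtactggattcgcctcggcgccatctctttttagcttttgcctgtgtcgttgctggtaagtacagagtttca
Cox7b: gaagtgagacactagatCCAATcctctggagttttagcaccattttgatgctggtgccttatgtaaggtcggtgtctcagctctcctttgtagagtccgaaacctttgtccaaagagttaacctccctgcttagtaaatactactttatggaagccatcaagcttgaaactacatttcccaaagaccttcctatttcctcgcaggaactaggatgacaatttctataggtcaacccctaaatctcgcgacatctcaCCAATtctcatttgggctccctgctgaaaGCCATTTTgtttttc
The Cox7b2 window held 3 CCAAT boxes and 10 CG pairs, and the Cox7b window 2 CCAAT boxes and 5 CG pairs. Neither held the NRF1 motif, read here as GCGCA and GCGC with any base between them, or the ETS motif CCGGAAGT, on either strand.

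Across the subunits as a whole, the NRF1 motif was in 24.7% of 73 windows of members, against 4.6% of all 32851 windows of this length. It was in 8 of 35 windows of complex I, 6 of 17 of complex V and 1 of 13 of complex IV. NRF1 is a factor known for driving nuclear genes of respiration. The YY1 motif was in 23.3% of member windows against 6.05% of all windows, with 12 of its 17 windows in complex I. The ETS motif CCGGAAGT was in 6.85% against 3.89%, and the CCAAT box in 41.1% against 37.4%. The member windows were also richer in CG pairs, with a median of 19 against 7, and NRF1 and ETS motifs contain CG themselves. These matches are letters in a window and not measured binding.

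Before the results, some libraries need naming. The labels of library 34 contradict each other: the inhibitor field says blebbistatin, while the source name says an empty vector with Y27, and its column in the table carries the number 35 under that same heading. Its construct and its inhibitor are thus both in doubt. It was kept with blebbistatin, and the main blebbistatin differences are given with and without it. Group levels, differences within runs, correlations, ranges over KDEL libraries and fits without another library include it. Libraries 3, 7 and 8 had a mean log2(signal + 1) of 8.53, 8.76 and 9.13 over 12 genes of mitosis, whereas the other 15 libraries lay between 11.36 and 12.12. The deposited signal is normalized for library depth, with 1 as its lowest value, and the steps between low values are 1.70 to 2.49 signal units for a read pair, which gives an estimate of 12697000 to 19462000 read pairs per library. Sun1, whose transgene reads fall on the endogenous gene, had a signal between 38450 and 82620 in the 6 SUN1L libraries and between 2785 and 3799 in the 12 KDEL libraries. The fibroblast genes Col1a1 and Vim were abundant in all libraries, with lowest signals of 32650 and 41870. Some fibroblast genes were lower in libraries 3, 7 and 8. Thy1 had 1359, 1132 and 1233 there and between 2364 and 4694 in the others, and Vim and S100a4 were also lowest there. Not all went this way, since Col3a1 was highest in library 3 and Fn1 in library 7. The neuronal markers Tubb3, Rbfox3 and Snap25 stayed at or below 3.40. Some markers of other tissues were detected. Krt14 and Cdh1 (epithelium) reached 871.8 and 311, Cdh5 (endothelium) 234.4 and Cd68 (blood) 304.2. The other listed markers of these tissues (Epcam, Krt8, Krt18, Pecam1, Kdr, Ptprc and Hba-a1) stayed at or below 70.27.

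Respiratory chain transcripts were abundant. Over the 83 members above the lowest value in at least 3 libraries, the median of the mean signal per kb of the longest transcript was 2311, against 208 for the genes that passed this filter. The members made up between 0.794% and 1.07% of the summed signal of a library. Median signals per kb were 1807 for complex I, 1838 for complex II, 3769 for complex III, 3201 for complex IV and 4459 for complex V. Atp5b, the catalytic beta subunit of ATP synthase, stood above all other members with 23407 per kb. Next came Cox4i1, the ubiquitous isoform of subunit 4 of complex IV, with 12926 per kb, and Ndufa4, a small subunit named for complex I and now usually assigned to complex IV, with 12860 per kb. By signal not divided by length, the highest members of complexes II and III were Sdha (4987), the flavoprotein that oxidizes succinate, and the core subunit Uqcrc1 (6237), which are long transcripts with 1720 and 3769 per kb. At the other end, Cox8c, a testis isoform, was listed at the lowest value in all 18 libraries and was not tested.

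The authors removed reads of low mapping quality, a filter that bears on genes with copies elsewhere in the genome. Of the 84 members, 40 had no stretch of 50 transcript bases, the length of a read, repeated exactly outside their own locus in NCBIM37 (mm9), and 13 had over 25% of such stretches repeated. Ndufs5, a ubiquitous complex I subunit, had 49.8% repeated and a mean signal of 59.8. Cox7c, a ubiquitous complex IV subunit, had 27.9% repeated and a mean signal of 300.2. A low signal did not follow repeats in every case, since Atp5g2, 1 of the genes for the c ring of ATP synthase, had every stretch repeated and a signal of 4441, and Atp5h, of the peripheral stalk, had 59.6% repeated and a signal of 5572. Values of the 13 members are less certain than those of the others, and the part of copies in their levels was not tested. Cox7b2 had no repeated stretch, and its longest exact run in common with Cox7b was 11 bases.

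Cox7b2 (ENSMUSG00000049387, chr5:71442824-71548205, minus strand, GRCm38) was set apart because earlier results of these data showed it high in SUN1L libraries, so its values are a description and not independent support. Its signal on 1 kPa was 355.5, 455.1 and 426 in SUN1L libraries 3, 15 and 27, and 65.1, 68.3 and 94.2 in KDEL libraries 4, 16 and 28. On 308 kPa it was 324.5, 377.2 and 474.2 in SUN1L libraries 7, 19 and 31, and 96.3, 64.0 and 65.9 in KDEL libraries 8, 20 and 32. Every SUN1L library lay above every KDEL library. The mean was 412 ± 51.2 (SD, n = 3) against 75.9 ± 15.98 on 1 kPa, a ratio of 5.43, and 392 ± 75.9 against 75.4 ± 18.1 on 308 kPa, a ratio of 5.20.

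On the log2(signal + 1) scale the differences were 2.44 (SE 0.25) and 2.37 (SE 0.25), with adjusted p-values of 0.0029 and 0.00286 by limma with Benjamini-Hochberg adjustment over all genes tested. Because Cox7b2 was set apart for this same difference, its p-values and calls describe the difference and do not test it. Calls, at an adjusted p under 0.05 and at least 2-fold, were made for 0.0874% of tested genes on 1 kPa and for 0.0624% on 308 kPa. Without the run of libraries 3 to 12 the differences were 2.44 and 2.68 with adjusted p-values of 0.147 and 0.0916, and with all 18 libraries in 1 fit the adjusted p on 308 kPa was 0.0982. Between 308 kPa and 1 kPa, Cox7b2 differed by -0.01 (SE 0.25) in KDEL and -0.08 (SE 0.25) in SUN1L cells, which is within the error. The interaction was -0.07 with a 95% interval from -0.84 to 0.71.

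With inhibitors, Cox7b2 stayed below all SUN1L libraries. Y27 libraries 12, 24 and 36 had signals of 67.7, 76.9 and 83.4, and the difference from untreated KDEL cells was 0.03 (95% interval -1.26 to 1.32). Blebbistatin libraries 10, 22 and 34 had 107.5, 87.4 and 21.6. The value in library 34, whose labels conflict, was the lowest of all 18, and the group mean was 72.1 ± 45.0 (SD, n = 3) with it and 97.4 ± 14.2 (SD, n = 2) without it. The difference from untreated cells was -0.32 (95% interval -1.61 to 0.96) with library 34 and 0.38 (SE 0.27, adjusted p = 1) without it, so that its direction turned on this library.

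**Figure D1:**
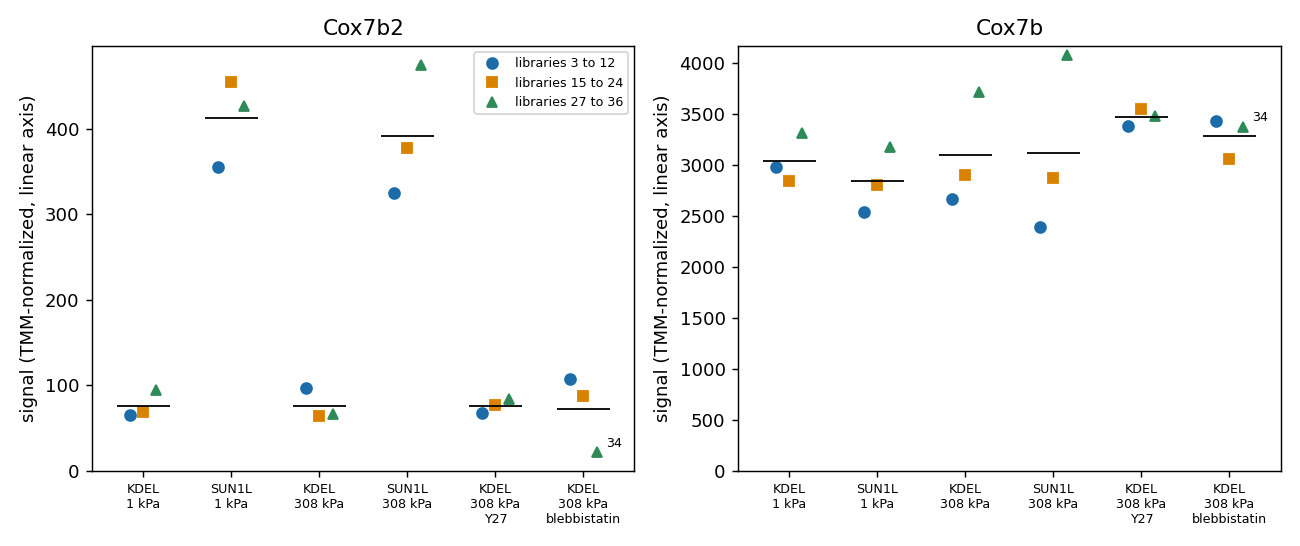
Signal of Cox7b2 (left) and of its ubiquitous paralog Cox7b (right) in each of the 18 libraries, on linear axes that start at 0; horizontal lines are group means and symbols give the run of serial numbers. All 6 SUN1L libraries lie at 324.5 or higher for Cox7b2 while the KDEL libraries lie at 107.5 or lower, and Cox7b shows no such gap.

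Cox7b, the subunit found in all tissues, had signals between 2397 and 4086 in the SUN1L libraries and between 2663 and 3720 in the KDEL libraries, inhibitors included, so those ranges overlapped. Not divided by transcript length (542 bases for Cox7b2 and 1001 for Cox7b), Cox7b2 signal amounted to 11.6% to 16.2% of Cox7b signal in SUN1L libraries and to 0.638% to 3.62% in KDEL libraries, where the lowest share without library 34 was 1.77%. The genes around Cox7b2 on chromosome 5 did not share its pattern. Among table genes within 1 Mb, the GABA receptor genes Gabrg1, Gabra2, Gabra4 and Gabrb1 and the protease gene Corin had a highest signal of 9.83, Commd8 lay between 1280 and 1800, and Nfxl1 between 1224 and 2166. The genes most like Cox7b2 over the 18 libraries were Psd4 (Pearson r = 0.913), Gm13242 (0.911) and Sun1 itself (0.908), a description in which the 6 SUN1L libraries all share the construct. Of 9 markers of male germ cells, where Cox7b2 is known, 7 reached at most 2.49, with Dazl at the lowest value in all libraries, and Gapdhs lay between 5.94 and 46.9. Prm1, a protamine of sperm, was low but leaned the same way as Cox7b2. It had 18.5, 7.69 and 7.24 in SUN1L and 4.08, 5.25 and 3.69 in KDEL libraries on 1 kPa, and 11.01, 4.97 and 5.00 in SUN1L and 1, 1.89 and 3.22 in KDEL libraries on 308 kPa, without overlap on either gel. These differences of 1.08 (unadjusted p = 0.0291, adjusted p = 0.93) and 1.38 (unadjusted p = 0.00833, adjusted p = 1) rest on a few read pairs, and Prm1 was 9.87 and 9.72 in libraries 34 and 36. The part of germ cell transcripts in the Cox7b2 signal was not tested. In bulk RNA, more cells with Cox7b2 and more of it per cell cannot be told apart.

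The other 82 tested members showed no call in any comparison, where at most 0.0874% of all tested genes were called. On 1 kPa, SUN1L minus KDEL differences had a median of -0.05 on the log2 scale, with 53 members lower and 29 higher, against a median of -0.01 over all genes tested. On 308 kPa the median was -0.03, again with 53 lower and 29 higher, and all genes had a median of -0.03. At an unadjusted p under 0.05, 2 members were higher and 0 lower on 1 kPa, where 2.75% of all tested genes were higher and 1.79% lower. On 308 kPa 0 members passed, where 1.36% of all genes were higher and 1.17% lower. The smallest adjusted p among the 82 was 0.93 on 1 kPa and 1 on 308 kPa. The members' shares were near or below those of all genes. Scaling every library to the median of all tested genes moved members and other genes alike: the members' medians became 0.01 on 1 kPa and 0.02 on 308 kPa, with 42 and 47 of 82 higher, and those of all genes became 0.05 and 0.02.

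For rigidity no member was called either. The median of 308 kPa minus 1 kPa was 0.04 in KDEL and 0.03 in SUN1L cells, with 53 and 49 of 82 members higher. The share of genes called was 0% in each, and 0 members passed an unadjusted p under 0.05 in either. Over all genes, 0.68% were higher and 0.687% lower at that threshold in KDEL cells, and 0.624% higher and 1.31% lower in SUN1L cells. For the interaction of SUN1L with rigidity, called at a Bonferroni-corrected p under 0.05, the share was again 0%, and the members' median was 0.01. The smallest p among members was that of Ndufs1 (0.21, SE 0.18, unadjusted p = 0.251), followed by Ndufa11 (-0.24) and Atp5g3 (0.28). At an unadjusted p under 0.05, 0 members were among the 0.399% of genes with a positive and the 0.506% with a negative interaction.

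**Figure D2:**
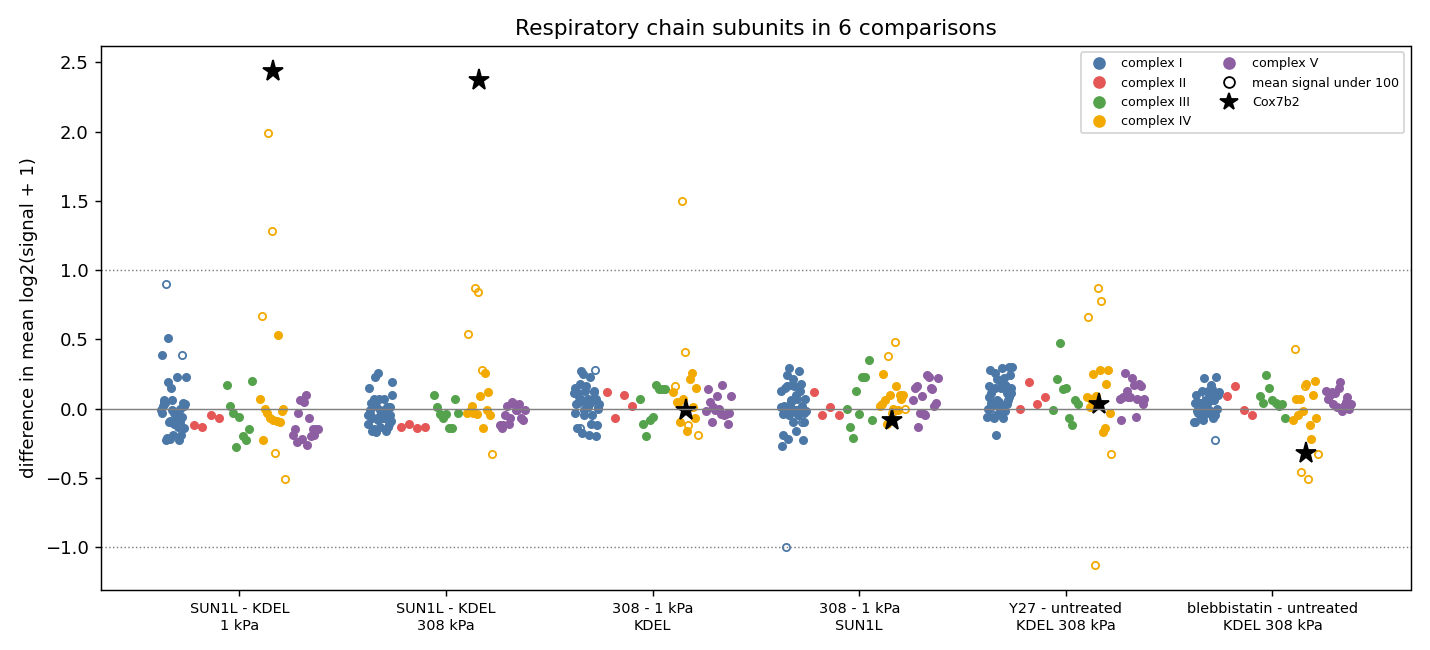
Differences in mean log2(signal + 1) of 83 members for 6 comparisons, 1 point per gene in columns by complex, with dotted lines at a 2-fold difference; open circles are genes with a mean signal under 100 and stars mark Cox7b2. The abundant members lie within -0.28 and 0.53 of 0, and Cox7b2 stands at 2.44 and 2.37 in the SUN1L comparisons.

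Among the 38 subunits of complex I, the NADH dehydrogenase, those with the smallest p on 1 kPa were Ndufa11 and Ndufa7, accessory subunits. Ndufa11 had signals of 1533, 1438 and 1513 in SUN1L libraries 3, 15 and 27 and of 1153, 1087 and 1194 in KDEL libraries 4, 16 and 28. These groups did not overlap, and the difference was 0.39 (SE 0.18, adjusted p = 0.93). On 308 kPa the SUN1L libraries had 1150, 1009 and 1633 against 1275, 926 and 1186, which overlap, with a difference of 0.15 (SE 0.18). Ndufa7 differed by 0.51 (SE 0.25, adjusted p = 0.93) on 1 kPa, with a signal of 2745 in library 3 and of 1916 and 1974 in the other SUN1L libraries. Ndufs1, the large iron-sulfur subunit that takes up electrons, had 5096, 4696 and 5823 in KDEL and 3919, 4473 and 4887 in SUN1L libraries on 1 kPa. In SUN1L cells on 308 kPa it had 4988, 5339 and 5693, all above the SUN1L libraries on 1 kPa, with a rigidity difference of 0.27 (SE 0.13, unadjusted p = 0.0512, adjusted p = 1). Ndufv3, beside the NADH site, had 1124, 1139 and 1625 in SUN1L and 1059, 1092 and 1207 in KDEL libraries on 308 kPa, a difference of 0.19 within overlapping groups. Ndufa9, an accessory subunit, was among the 3 members with the smallest p for rigidity in both KDEL (0.25) and SUN1L cells (0.29), with an adjusted p of 1. Over complex I the median SUN1L minus KDEL difference was -0.02 on 1 kPa and -0.03 on 308 kPa. Its sign turned with single libraries: it was 0.01 and 0.03 on 1 kPa without library 3 or 28, and on 308 kPa it was 0.05 without library 7 or 19, 0.03 without library 32, -0.14 without library 20 and -0.23 without library 31, with 35 of 38 genes lower.

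Complex II, succinate dehydrogenase, was the smallest and the least variable complex. All 4 genes were lower in SUN1L than in KDEL cells on both gels, with medians of -0.10 on 1 kPa and -0.13 on 308 kPa, and none passed a test (smallest adjusted p = 0.93 and 1). The medians varied with the libraries: on 1 kPa the median was -0.05 without library 3, -0.06 without library 4 and -0.15 without library 16, and on 308 kPa it was -0.06 without library 32, -0.07 without library 7 and -0.23 without library 31. Sdha had signals of 4936, 4622 and 4803 in KDEL and 4184, 4535 and 4465 in SUN1L libraries on 1 kPa. On 308 kPa it had 5358, 5057 and 5210 in KDEL and 4678, 4948 and 4669 in SUN1L libraries. Each SUN1L group lay below the KDEL group of the same gel without overlap, by -0.12 (SE 0.09) and -0.13 (SE 0.09). The share of all genes without overlap is not given, so this separation is a description.

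Sdhb, the iron-sulfur subunit, ranged from 1608 to 2661 and overlapped between SUN1L and KDEL on each gel, as did the membrane anchors Sdhc and Sdhd. Sdhc differed by -0.14 on 308 kPa (adjusted p = 1). Within runs of serial numbers, the median SUN1L minus KDEL difference of complex II was -0.25, -0.03 and -0.07 on 1 kPa and -0.27, -0.04 and -0.09 on 308 kPa, largest in the run that holds libraries 3 and 7. The other enzymes of the citric acid cycle leaned the same way: 11 of 13 were lower on 1 kPa and 13 of 13 on 308 kPa, with medians of -0.15 and -0.13, and 0 of 13 passed an unadjusted p under 0.05 in either comparison. Over all 16021 tested genes, 8286 were lower on 1 kPa and 9072 on 308 kPa. These enzymes moved with the members within groups (median r of 0.71), so their direction is not a separate observation, and their dependence on single libraries is not given.

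In complex III, Uqcr11, the smallest subunit, had the lowest p of all members with Y27. Its signals were 2572, 2784 and 2661 with Y27 and 1919, 1683 and 2213 in untreated KDEL libraries 8, 20 and 32, without overlap. The difference was 0.47 (SE 0.12, unadjusted p = 0.00361, adjusted p = 0.707), which did not pass the test. With blebbistatin it had 2300, 2066 and 2452, overlapping the untreated libraries, and the difference was 0.24 (SE 0.12) with library 34 and 0.18 (SE 0.13) without it. KDEL libraries on 1 kPa had 2253, 2148 and 2247, and 39.1% of its stretches of 50 bases are repeated elsewhere in the genome. Uqcrh, the hinge subunit, and the core subunit Uqcrc2 had the smallest p-values for rigidity among complex III genes in SUN1L cells, with differences of 0.35 (SE 0.21) and 0.23 (SE 0.14) and overlapping groups.

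In complex IV, cytochrome c oxidase, Cox7a2l had the smallest p on 1 kPa after Cox7b2. This paralog of subunit 7a is known for joining complexes III and IV into supercomplexes. It had signals of 6483, 5158 and 5757 in SUN1L and 4352, 3207 and 4556 in KDEL libraries on 1 kPa, which did not overlap. The difference was 0.53 (SE 0.21, unadjusted p = 0.0287, adjusted p = 0.93). On 308 kPa the signals were 5593, 5028 and 6672 against 6276, 3601 and 4882, which overlap, with a difference of 0.26 (SE 0.21). Of its stretches of 50 bases, 54.3% are repeated elsewhere in the genome. It moved less closely with the other members than most.

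The isoform sets showed the ubiquitous member in every library. Cox4i1 lay between 7188 and 12234, while Cox4i2, the lung and hypoxia isoform, lay between 3.65 and 29.6. Cox6a1 lay between 4561 and 8840, Cox6b1 between 2753 and 5257, Cox7a2 between 1822 and 3483 and Cox8a between 3470 and 6477. Their partners from muscle or testis, Cox6b2, Cox7a1 and Cox8b, reached at most 10, 11.4 and 2.95, close to a few read pairs. Cox6b2 was at the lowest value in all KDEL libraries on 1 kPa and at 3.25, 2.09 and 7.76 in SUN1L libraries, which gave an unadjusted p of 0.0351 at a level that these depths cannot resolve. In complex I, Ndufa4 lay between 4497 and 8172 and Ndufa4l2, the hypoxia isoform, at or below 13.4. The c-ring genes of ATP synthase were all expressed, with Atp5g3 between 5787 and 10441, Atp5g2 between 3426 and 5954 and Atp5g1 between 3069 and 5162. Of the low isoforms, only Cox7b2, which was set apart for this difference, had every SUN1L library above every KDEL library with and without inhibitors.

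Cox6a2, the heart and skeletal muscle isoform of subunit 6a, was an exception of another kind. It reached 105, 89.1 and 145.6 in libraries 3, 7 and 8 and 27.8 in library 10, and lay between 1 and 17.1 in the other 14. Libraries 3, 7 and 8 are those with low mitotic genes, and they come from 3 groups. Of 7 muscle markers, Actc1 was at the lowest value in all libraries, and Myog and Ckm reached at most 2.16 and 3.26. Acta1 was lower in these 3 libraries (11.7, 14.5 and 10.8) than in the others (30.6 to 376.5). Myh3 and Ryr1 stayed at or below 19.6 and 21.0, and Tnnt2 was at 588.9, 576.7 and 201 in these 3 and reached 4477 in the others. No comparison of Cox6a2 passed a test, and its SUN1L difference on 1 kPa, 1.99 (SE 1.68), rests on library 3.

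**Figure D3:**
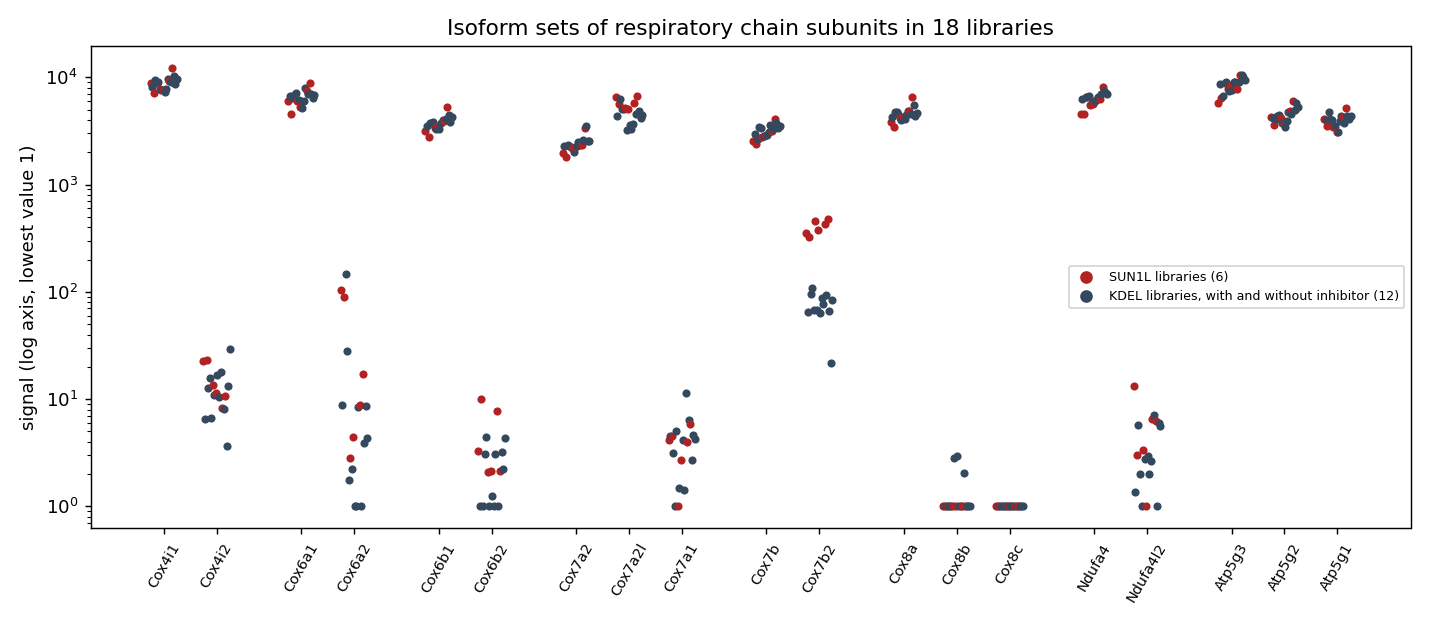
Signal on a log axis, with 1 as the lowest value, of 8 sets of isoforms in 18 libraries; red points are the 6 SUN1L libraries and dark points the 12 KDEL libraries with and without inhibitors. Ubiquitous isoforms lie at 1822 or higher, restricted ones other than Cox7b2 lie under 30 except Cox6a2 in libraries 3, 7 and 8, and Cox7b2 separates by construct at an intermediate level.

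Complex V, ATP synthase, showed the largest shift on 1 kPa of any complex, with a median of -0.15 and 12 of 15 genes lower in SUN1L cells. None passed a test, and the size of the shift varied with the libraries: the median was -0.06 without library 3, -0.08 without library 28 and -0.26 without library 27. On 308 kPa the median was -0.05, and it was 0.17 without library 7, 0.03 without library 19, 0.12 without library 32 and -0.26 without library 31. Atp5b had signals of 45886, 39377 and 45014 in KDEL and 35159, 38839 and 43493 in SUN1L libraries on 1 kPa, which overlap. On 308 kPa it had 47536, 42705 and 53323 in KDEL and 37904, 43163 and 49748 in SUN1L libraries, which overlap as well. Atp5k, a small membrane subunit, varied most within groups (SD 0.37 on the log2 scale), with 1556, 2016 and 2544 in SUN1L libraries on 1 kPa and 1302, 1923 and 3305 in those on 308 kPa.

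No member was called with either inhibitor. With Y27, 63 of 82 members were higher than in untreated KDEL cells, with a median of 0.08 against 0.01 over all genes. The share of genes called was 0%. At an unadjusted p under 0.05, 4 members were higher (Uqcr11, Cox6b2, Ndufa13 and Ndufb7) and 0 lower, where 3.69% of all genes were higher and 2.37% lower. Ndufa13, an accessory complex I subunit, had 2032, 2219 and 2191 with Y27 against 2049, 1577 and 1724, a difference of 0.28 (SE 0.12, adjusted p = 0.789). Scaled to the median of all tested genes instead, the members' median with Y27 was -0.00, with 37 higher and 45 lower, and that of all genes was -0.08, so that the sign changed with a shift common to all genes while the members lay above the median of all genes under both scalings.

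With blebbistatin, 53 of 82 members were higher, with a median of 0.04, and 0 passed an unadjusted p under 0.05, where 2.05% of all genes were higher and 2.16% lower, and 0% were called. The members with the smallest p were Uqcr11 (0.24), Ndufs7, a core complex I subunit (0.23), and Ndufs1 (0.14), each with an adjusted p of 0.89. Without library 34 these were 0.18, 0.17 and 0.09, each with an adjusted p of 1, and the members' median was -0.00, with 40 higher and 42 lower. Then 1 member, Cox7a1 near the lowest value, had an unadjusted p under 0.05 (-0.96, SE 0.39, adjusted p = 1), while 3.04% of all genes passed it. In complex V 14 of 15 genes were higher with library 34 and 9 of 15 without it. Y27 and blebbistatin share the untreated KDEL libraries 8, 20 and 32, and the medians moved with these. Without library 32 the members' median was 0.17 for Y27 and 0.13 for blebbistatin, with 24 and 12 members at an unadjusted p under 0.05 (14.3% and 11.8% of all genes passed it), and without library 20 it was -0.02 and -0.06.

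What the subunits did together was to rise and fall from library to library within groups. Averaged over the 75 members with a mean signal of at least 100, the mean log2(signal + 1) ranged over 0.65 among the 18 libraries, from 11.13 in library 7 to 11.78 in library 31, both SUN1L on 308 kPa. The 6 group means ranged over 0.17, from 11.34 for SUN1L on 1 kPa to 11.50 for Y27, and the pooled SD within groups was 0.18. Group means were 11.38 ± 0.11 for KDEL on 1 kPa, 11.41 ± 0.19 for KDEL on 308 kPa, 11.38 ± 0.35 for SUN1L on 308 kPa and 11.45 ± 0.08 with blebbistatin (SD, n = 3 each). Neighbours in this order did not differ beyond their spread. The range of group means exceeded the pooled SD in complex II (0.21 against 0.10) and complex V (0.22 against 0.21), and was below it in complex I (0.14 against 0.18), III (0.18 against 0.19) and IV (0.14 against 0.21).

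**Figure D4:**
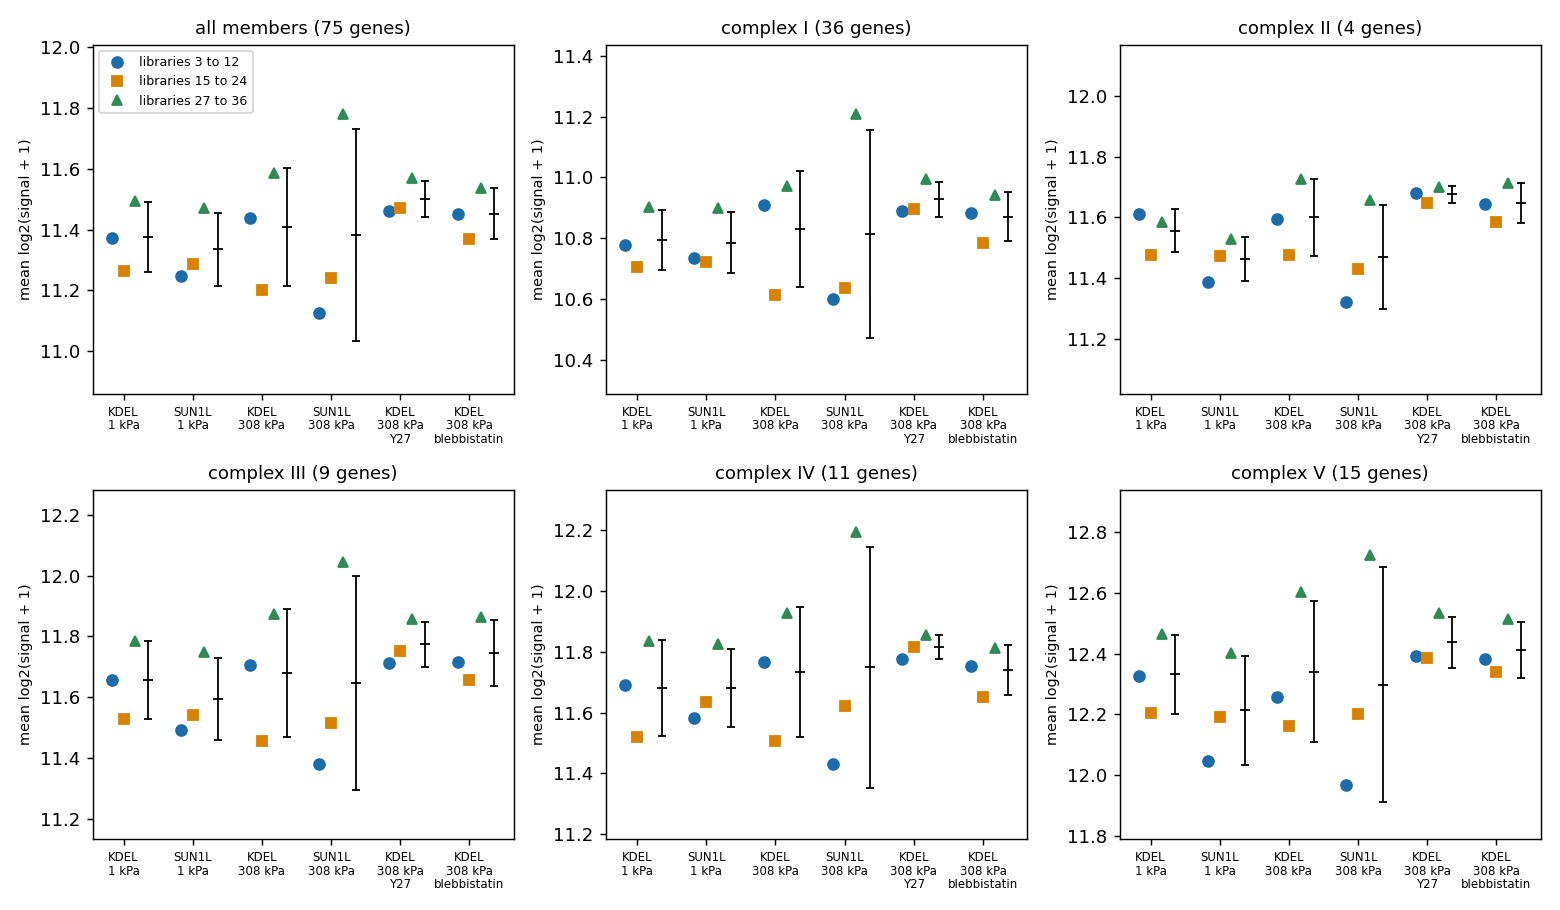
Mean log2(signal + 1) per library over all members with a mean signal of at least 100 and over each complex, by group; symbols give the run of serial numbers, and the bars beside them are group means ± SD of 3 libraries. In the panel of all members the third run lies highest in each of the 6 groups, and the SUN1L group on 308 kPa spans from 11.13 to 11.78.

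This movement was shared across complexes. The deviation of a member from its group means correlated with the mean deviation of the other members with a median r of 0.90 over 18 libraries, and r exceeded 0.5 for 69 of 75 members. Atp5d, the delta subunit of ATP synthase, followed the others most closely (0.99), with Ndufa12 (0.98), Uqcr10 (0.96) and Cox4i1 (0.96) near it. Those that did so least were Sdha (0.13), Ndufa6 (0.21), Ndufa7 (0.23), Ndufb9 (0.34), Cox7a2l (0.49) and Ndufb6 (0.49). Sdha was also the steadiest member, with an SD within groups of 0.06. Among 10517 other genes with a mean signal of at least 100, r with the members exceeded 0.5 for 30.6%.

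The genes that moved with the subunits reached beyond the respiratory chain. Mitochondrial ribosomal proteins, with symbols Mrpl or Mrps, had a median r of 0.85 with the members and 92.2% of 77 genes above 0.5, and cytosolic ribosomal proteins a median of 0.82 and 98.7% of 77 genes. Citric acid cycle enzymes had a median of 0.71 (11 of 13 above 0.5), assembly factors 0.67 (26 of 41) and mobile electron carriers 0.63 (8 of 12). Mitosis genes had a median of 0.48 (3 of 12). These correlations are descriptions over 18 libraries that share their depth, run and normalization.

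The members' level differed between runs of library numbers. Serial numbers 3 to 12 form the first run, numbers 15 to 24 the second and numbers 27 to 36 the third. A run contains every group once, and the labels do not say what it stands for. The members' mean was 11.35 ± 0.13, 11.31 ± 0.10 and 11.57 ± 0.11 (SD, n = 6) in the 3 runs. The third run was higher than the others for 74 of 75 members, with a median of 0.26, against 53.4% of the other genes with a median of 0.03. Cytosolic and mitochondrial ribosomal proteins were also higher there, by medians of 0.29 and 0.32. The 12 mitosis genes were all higher there, with a median of 0.99. Libraries 3, 7 and 8, in which these genes were low, belong to the first run. Of citric acid cycle enzymes 92.3% were higher in the third run, of assembly factors 75.6% and of mobile electron carriers 75%. Because each run holds every group, comparisons can be read within runs. SUN1L minus KDEL on 308 kPa had a member median of -0.32 in the first run, 0.04 in the second and 0.20 in the third, with 73 of 75 members lower in the first and 62 of 75 higher in the third. Of 10592 tested genes with a mean signal of at least 100, 6271 were lower in the first (median -0.06) and 4571 higher in the third (median -0.04). The first run pairs libraries 7 and 8, both with low mitotic genes. On 1 kPa the member median was -0.16, -0.02 and -0.03. Y27 minus untreated gave 0.03, 0.28 and -0.02, and blebbistatin minus untreated gave -0.00, 0.17 and -0.05. On 308 kPa the direction thus turned between runs.

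In library 31, 73 of 75 members were above both other SUN1L libraries on 308 kPa, against 43.1% of the 10592 tested genes with a mean signal of at least 100. Without library 31 the median of the 82 members for SUN1L against KDEL on 308 kPa was -0.24, with 74 lower and 5 at an unadjusted p under 0.05, while 4.34% of all genes passed it, and the rigidity difference in SUN1L cells was -0.14. Without library 7 these medians were 0.11 and 0.15. The median for SUN1L against KDEL on 308 kPa was also above 0 without library 19 (0.04) or 32 (0.06) and was -0.14 without library 20, so its sign rested on single libraries. In complexes III and IV the medians on 308 kPa were 0.13 and 0.16 without library 7 and -0.24 and -0.19 without library 31. For rigidity in KDEL cells the median of the 82 members was -0.01 without library 16, -0.05 without library 32 and 0.15 without library 20. A block on the runs left 0 members called in any comparison. It raised the members at an unadjusted p under 0.05 to 5 higher and 5 lower on 1 kPa, while 14.1% of all genes passed that threshold, and to 10 higher with Y27, while 10.5% of all genes passed.

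**Figure D5:**
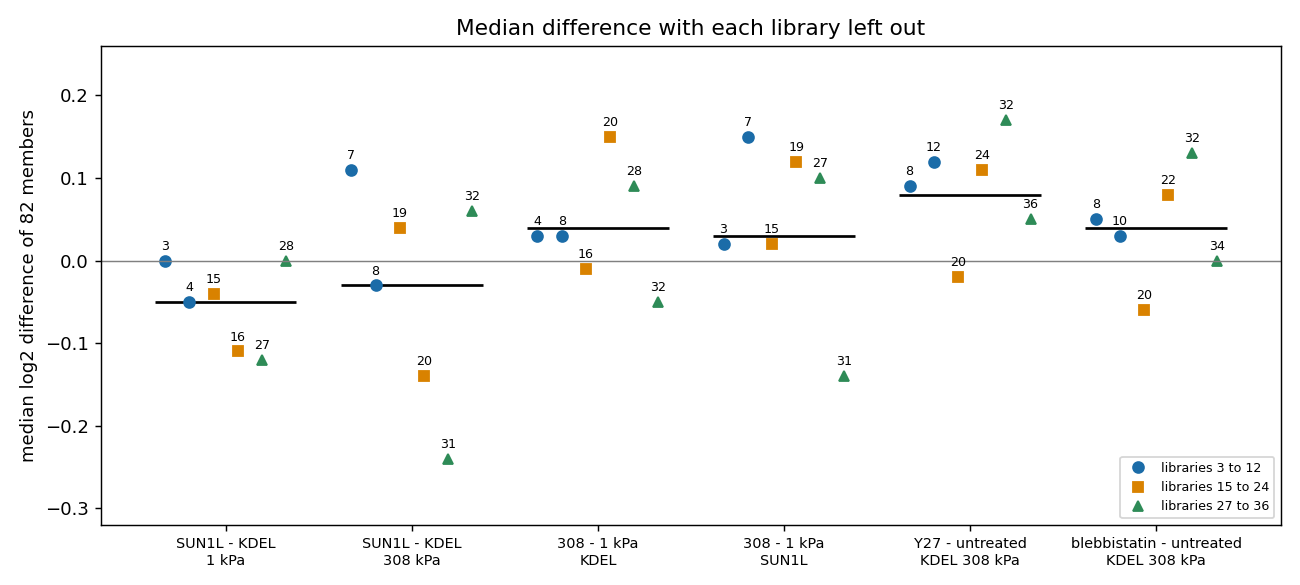
Median log2 difference of the 82 members in 6 comparisons (black lines) and the same median with each library of the comparison left out (symbols with the library's number). For SUN1L against KDEL on 308 kPa the median goes from -0.24 without library 31 to 0.11 without library 7.

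Among genes that build or regulate the chain, none was called. Calls were rare over all tested genes, at most 0.0874% in any comparison, so 0 calls do not set these lists apart. Of 44 tested assembly factors, 0 were called in any comparison, and SUN1L against KDEL gave medians of -0.05 on both gels. Sco2, a copper chaperone of complex IV, had the smallest p on 1 kPa (165 ± 5.50 against 121 ± 9.22, SD, n = 3, difference 0.45, adjusted p = 0.93), and Cox15, which makes heme A, on 308 kPa (1056 ± 183 against 1310 ± 91.0, difference -0.32, adjusted p = 1). Of 16 tested regulators of mitochondrial gene expression, 0 were called. Ppargc1a, the coactivator known for driving mitochondrial biogenesis, was near the lowest values, at 27.8 ± 20.7 in SUN1L and 7.54 ± 10.5 in KDEL cells on 308 kPa. These groups overlapped, the difference was 2.31 (SE 0.86, unadjusted p = 0.0222, adjusted p = 1 by limma). Its interaction was 2.77 (SE 1.22, unadjusted p = 0.0453, adjusted p = 1 by limma). Untreated KDEL cells on 308 kPa had the lowest mean of all groups. Against them Ppargc1a was also higher with Y27 (1.83, unadjusted p = 0.0738, adjusted p = 0.8 by limma). With blebbistatin, the library of conflicting labels included, the difference was 2.54 (unadjusted p = 0.0216, adjusted p = 0.89 by limma). The difference on 308 kPa and the interaction therefore cannot be read as particular to SUN1L. Lrpprc, which stabilizes mitochondrial mRNA, had 8793 ± 422 against 7526 ± 89.0 on 308 kPa (difference 0.22, unadjusted p = 0.0462, adjusted p = 1) and 7512 ± 423 against 6625 ± 481 on 1 kPa (difference 0.18). Of 13 mobile electron carrier genes, 0 were called, and Cycs, cytochrome c, differed by -0.36 on 1 kPa and -0.20 on 308 kPa.

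The median SUN1L minus KDEL difference of the 12 mitosis genes on 1 kPa was -1.30, none of them passed an unadjusted p under 0.05, and library 3 was the only SUN1L library on that gel with low values. Without libraries 3, 7 and 8 the members' medians were -0.00 on 1 kPa and 0.12 on 308 kPa, Cox7b2 differed by 2.54 and 2.68 (adjusted p = 0.0279 and 0.0286), and 0 of the other 82 members were called.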

How the data were processed

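The deposited table held 1 signal value per protein-coding gene and library on a linear scale. Per the labels and the paper's methods, the authors sequenced paired-end reads of 50 bases from polyadenylated RNA, aligned them to mm9 with TopHat2 2.0, removed reads of low base or mapping quality, reads without proper mates and duplicates in AvadisNGS, and applied trimmed-mean (TMM) scaling to the signal. No value is under 1. The positions in the table lie on GRCm38. Removal of duplicates and of poorly mapped reads can lower short, abundant or copied transcripts, and respiratory chain transcripts are short (median 850 bases). The signal is not counts, so no count test was used.

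From these values log2(signal + 1) was fitted by group with limma 3.58.1 (R 4.3.3, empirical Bayes with an intensity trend) on 12 libraries for SUN1L and rigidity and on 9 for the inhibitors. Two-sided tests covered the 16021 genes that exceeded 1 in 3 or more of the 18 libraries. A fold change on this scale understates that of low genes. Calls needed a 2-fold difference with a p under 0.05 after Benjamini-Hochberg adjustment, and for the interaction a Bonferroni-corrected p under 0.05. An exact permutation test of 3 against 3 libraries cannot go below 0.1. Groups of 3 said not to overlap are therefore a description, and the share of all genes without overlap is not given. The model was tested on simulated data. The members and lists were chosen with earlier results of these data known. Named genes are Cox7b2, the 3 members with the smallest p per comparison, the most abundant of each complex, the isoform sets, members below the filter, neighbours of Cox7b2 within 1 Mb, the 3 genes most correlated with it, and up to 3 per list; other members were named after their values were seen. Promoter windows and motifs were read from RefSeq, matching 67 members by symbol and 1 by synonym, and copies by exact matches of 50 bases to NCBIM37. The columns carry no replicate number; runs of serial numbers were used as a block in an alternative. The other alternatives, leaving out each library among them, are given with their effect after the report.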

Additional observations from a re-analysis of the deposited data

How the results depend on the processing

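The 0 calls among the 82 members held under every alternative run: no filter or a filter at a mean signal of 10, other pseudocounts (8 and 0.1), added quantile normalization, a joint fit of the 18 libraries, limma with no trend, calls by adjusted p only, the replicate block on runs of serial numbers, scaling to the median of all genes, without the first run, without libraries 3, 7 and 8, and with each library left out. The last scaling, the set without libraries 3, 7 and 8 and the limit of 100 on mean signal were chosen after seeing the data. In the main fit at most 0.0874% of all tested genes were called in any comparison. The 0 calls therefore do not set the 82 members apart from other genes. Cox7b2 was set apart for being high in SUN1L libraries, so the alternatives describe its difference and do not test it. It kept its direction in the SUN1L comparisons under all of them. On 308 kPa it lost its call with all 18 libraries, inhibitors included, in 1 limma fit (2.37, adjusted p = 0.0982). Without the run of libraries 3 to 12, which leaves fewer libraries, it lost both calls (2.44 and 2.68, adjusted p = 0.147 and 0.0916 by limma). With each library left out its difference ranged from 2.34 to 2.60 on 1 kPa and from 2.22 to 2.56 on 308 kPa. With the replicate block its differences were 2.44 and 2.37 (adjusted p = 0.00299 and 0.00344). Leaving out each library, the members' median for SUN1L went from -0.12 to 0.00 on 1 kPa and from -0.24 to 0.11 on 308 kPa. For rigidity the median went from -0.05 to 0.15 in KDEL and from -0.14 to 0.15 in SUN1L cells. It went from -0.19 to 0.15 for the interaction, from -0.02 to 0.17 for Y27 and from -0.06 to 0.13 for blebbistatin. Scaling to the median of all genes moved the members' median to 0.02 for SUN1L on 308 kPa and to 0.10 for rigidity in KDEL, a shift common to all genes, whose medians moved from -0.03 to 0.02 and from -0.01 to 0.05. Libraries of 1 run deviated together from their group means over all genes (r between 0.10 and 0.67), but the labels do not tie them. Depth limits genes near the lowest value, where a read pair is worth 1.70 to 2.49 signal units.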
